A study of Rattus norvegicus with 13 samples.

Results

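The genes described here are the DNA replication and G1/S genes: the MCM2-7 helicase, the proteins that load and start it, the polymerases with their clamp and clamp loader, the enzymes that join new strands and supply deoxynucleotides, and the cyclins and kinases of the passage from G1 into S phase. They were a list of 40 gene names, and a gene was kept if its deposited row had a mean of at least 10 normalized counts over all pups. This left 39 genes of the 14716 deposited rows (14606 of which passed the same minimum); E2f1 had no row, and for Cdc45, which had several rows, the highest was used. RNA-Seq was performed on the posterior ventricular zone (VZ), the layer of progenitor cells lining the ventricle, collected by laser capture microdissection from the forebrain of Long Evans rats. All pups were male, were taken on postnatal day 2 (PN2), and came 1 from each litter. The 7 control pups were euthyroid and came from dams that drank vehicle. The 6 PTU exposed pups were hypothyroid and came from dams given 3 ppm propylthiouracil (PTU), an inhibitor of thyroid hormone synthesis, in the drinking water from gestational day 6, a dose that in the study's reading gave moderate maternal hypothyroidism. The captured tissue held every cell type within its outline, so it was not a purified population of progenitors.

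Before S phase, the origin recognition complex together with Cdc6 and Cdt1 loads the MCM2-7 ring onto DNA, and Cdc45 and the GINS complex then turn the ring into an active helicase. Primase and polymerase alpha start each new strand, the RFC complex loads the PCNA clamp, polymerases delta and epsilon extend the strand, and Fen1 and Lig1 finish the lagging strand. Entry into this program is set by cyclin D with Cdk4 or Cdk6 and by cyclin E with Cdk2, which release E2F transcription factors, and many replication genes are known E2F targets. In the VZ, radial glia pass through S phase away from the ventricle and divide at its surface, so transcripts of this program mark the cycling progenitors.

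Because many of the members are known E2F targets, their promoters were searched for the 8 letters of the usual E2F motif. To show what these letters look like in place, stretches with a match upstream of or at the start site are given for the MCM2-7 helicase and for 1 gene each of helicase activation, the polymerases and deoxynucleotide supply. The windows run from 250 bases before to 50 bases after the start site and come from RefSeq on build GRCr8, whereas the deposited values rest on mRatBN7.2. The motifs searched on both strands were TTTCCCGC, TTTGGCGC, TTTCGCGC and TTTGCCGC. Capitals mark the matches, and each stretch reads 5′ to 3′ on the strand of its gene.
Mcm2 (chr4:122918095-122918122, minus strand): tcacgtgacccggtTTTCGCGCGAAAac
Mcm3 (chr9:30733745-30733766, minus strand): cataaacttccgtgGCGGGAAA
Mcm5, far (chr19:13488586-13488625, plus strand): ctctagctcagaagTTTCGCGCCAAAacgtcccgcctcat
Mcm5, near (chr19:13488791-13488812, plus strand): ctcccaggttggttTTTCCCGC
Mcm6 (chr13:42404466-42404505, minus strand): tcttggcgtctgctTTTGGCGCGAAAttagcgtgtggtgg
Mcm7, far (chr12:22163390-22163425, minus strand): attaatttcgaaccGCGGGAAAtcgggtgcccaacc
Mcm7, near (chr12:22163209-22163244, minus strand): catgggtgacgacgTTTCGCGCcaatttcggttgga
Gins1 (chr3:160184881-160184919, plus strand): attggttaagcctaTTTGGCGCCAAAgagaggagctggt
Pola1 (chrX:62342506-62342541, minus strand): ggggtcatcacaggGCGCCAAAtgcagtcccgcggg
Tyms (chr9:120776099-120776134, minus strand): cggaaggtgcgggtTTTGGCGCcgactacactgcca
In Mcm2, Mcm6, Gins1 and the far stretch of Mcm5, the 12 capitals are a match on each strand that overlap by 4 letters. A window was found for 30 of the 40 listed genes, and 13 of those 30 (43.3%) held a match, against 716 of all 33469 rat promoter windows (2.14%) and 422 of the 10177 windows (4.15%) of genes tested here. All 5 MCM2-7 genes with a window (Mcm4 had none) held more than 1 match. A match describes letters in the window and was not tested as a binding site.

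**Figure D1:**
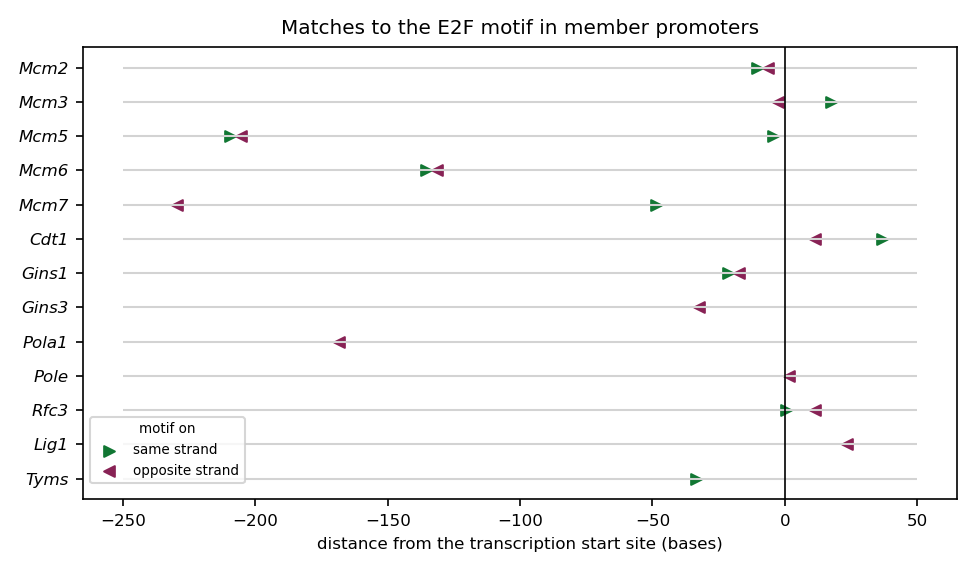
Each row is a member whose promoter window held an E2F motif match, the horizontal axis gives the distance from the transcription start site in bases, and arrowheads point along the strand that carries the motif. Matches lie on both sides of the start site, and paired arrowheads in Mcm2, Mcm5, Mcm6 and Gins1 are the overlapping matches on opposite strands.

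The reads behind the values, estimated from the spacing of low values in each pup, ranged from 22293223 to 43508947 in control pups and from 28412175 to 44386473 in PTU exposed pups. The study reports some degradation of the RNA from the captured VZ, and its part in the values was not tested. The member with the fewest estimated reads was Orc1, a subunit of the origin recognition complex. All 11 radial glia markers, among them Slc1a3, Vim and Fabp7, were present, and Sox2, a transcription factor of neural stem cells, ranged from 5209 to 8384 normalized counts over all pups. A single pup stood apart: PTU 1 had the lowest value of all 13 pups in 20 of the 39 members and the lowest of the PTU exposed pups in 31. Its mean over the members, after each group mean was subtracted, was -0.44 on the log2 scale, against 0.03 to 0.17 in the other PTU exposed pups and -0.23 to 0.28 in control pups. The same pup had the highest mean level of the 14 neuron markers, 1.64 on the log2 scale relative to all pups, with every other pup at 0.49 or below. Among control pups, control 6 was the highest in 21 members. The main counts, medians and correlations of the gene groups are therefore also given without PTU 1.

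Across the 39 members, no transcript passed the threshold between PTU exposed and control pups after adjustment over all rows (limma on log2(normalized count + 1), Benjamini-Hochberg adjusted p from 0.173 to 0.995), and 0% of the 14606 rows tested had an adjusted p of at most 0.05. The study compared the same pups with DESeq2 and did report genes at an FDR of at most 0.05. The 0% therefore holds for the limma fit used here. An unadjusted limma p under 0.05 was found for 6 of the 39 members (15.4%), beside 16.3% of all rows. Of these, Mcm4, Orc6, Rfc4 and Rfc5 had higher means in PTU exposed pups (8.11% of all rows did so) and Orc2 and Cdk6 had lower ones (8.2% of all rows). The mean was higher in PTU exposed pups for 26 members and lower for 13, the log2 fold changes ran from -0.33 to 0.40, and their median was 0.07, with 50.7% of all rows higher and a median of 0.0038. When all pups were given 1 common total instead, the median of all rows moved to 0.20, 1584 rows were higher and 81 lower at an unadjusted p under 0.05, and 37 of the 39 members had higher means, all but Orc2 and Cdk6. Of those 37, 7 had an unadjusted p under 0.05, and relative to the moved median 26 members were above and 13 below. A common total is set largely by the 3 highest rows, which have no gene name and held 32.4 to 60.1% of the estimated reads of control pups and 23.9 to 57.0% of those of PTU exposed pups. The groups overlapped in every member, and a lack of overlap was rare in the whole table too (0.596% of all rows). Without PTU 1 they did not overlap in 1 member, Rfc5, and in 0.986% of all rows. The SD between pups of a group had a median of 0.28 on the log2 scale for the members, the same as for all rows, and the 95% intervals of the differences had a median reach of 0.30 on either side, so differences of that size or smaller could not be told from 0 in a typical member. In tissue captured by area, a different share of cycling cells and a different amount of RNA of these genes per cell cannot be told apart.

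**Figure D2:**
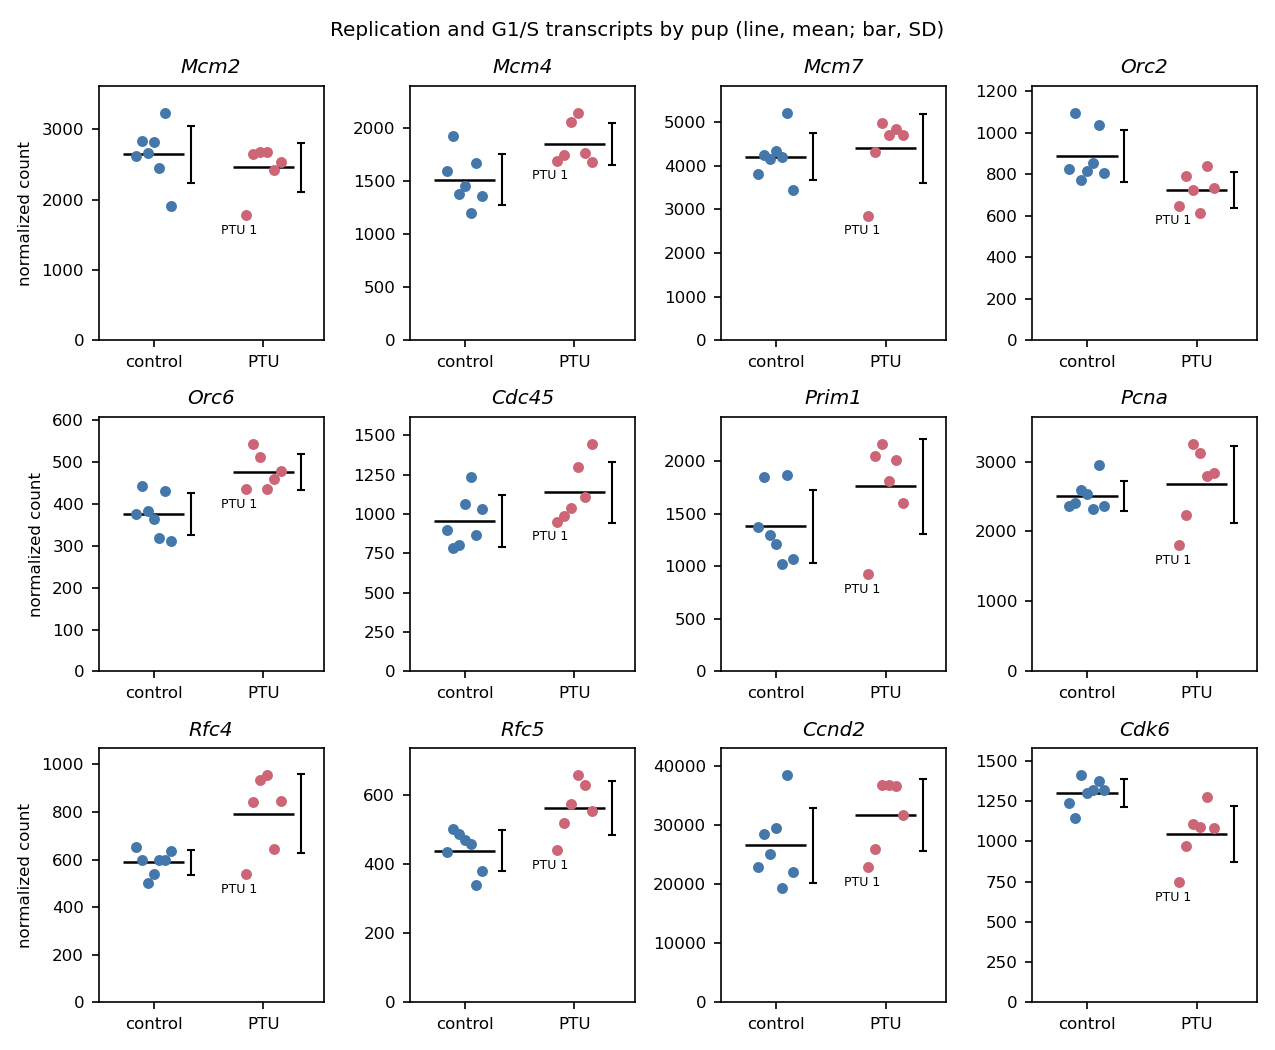
Normalized counts of 12 members by pup, with a point for each of the 7 control and 6 PTU exposed pups, a line at the group mean and a bar for the SD. The groups overlap in every panel, PTU 1 is marked, and it is the lowest point in panels such as Mcm7, Prim1 and Pcna but not in Orc6.

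The MCM2-7 ring, which unwinds DNA ahead of the fork, was represented by all 6 subunits. Mcm4 ranged from 1199 to 1923 normalized counts (median 1456) in the control group and from 1678 to 2136 (median 1753) in the PTU group. All 6 PTU exposed pups lay above the control median, but only 2 of them above the highest control pup. The log2 fold change of Mcm4 was 0.29 with an SE of 0.11 (95% interval 0.07 to 0.52; limma adjusted p = 0.194; exact permutation test, two-sided, p = 0.0216). Its partner subunits were closer to 0, with log2 fold changes from -0.10 to 0.08 (from -0.01 to 0.18 without PTU 1). Mcm2, which also binds histones at the fork, ranged from 1917 to 3229 normalized counts (median 2664) in the control group and from 1778 to 2685 (median 2594) in the PTU group. Its difference had a 95% interval from -0.35 to 0.14, and the lowest pup was PTU 1. Mcm7 ranged from 3442 to 5196 normalized counts in control pups and, leaving PTU 1 at 2852 aside, from 4308 to 4971 in PTU exposed pups, which places these 5 pups inside the control range. Mcm3, Mcm5 and Mcm6, the remaining subunits, had log2 fold changes of -0.0028, 0.08 and 0.03, and each had 4 or 5 of the 6 PTU exposed pups above the control median. Each of these 3 differences changed sign when 1 of the pups was left out.

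Of the genes that mark and license origins, Orc6 and Orc2 had differences of opposite sign. Orc6, the smallest subunit of the origin recognition complex, ranged from 311 to 442 normalized counts (median 376) in the control group and from 434 to 542 (median 470) in the PTU group. All 6 PTU exposed pups were above the control median and 4 were above the highest control pup, PTU 1 being among the lower ones. The log2 fold change was 0.35 with an SE of 0.12 (limma adjusted p = 0.174; exact permutation test, two-sided, p = 0.00466). Orc2, a core subunit of the same complex, ranged from 772 to 1095 (median 827) in the control group and from 612 to 843 (median 731) in the PTU group. Here 4 of the 6 PTU exposed pups were below the lowest control pup and 1 was above the control median. Its log2 fold change was -0.29 with an SE of 0.11 (limma adjusted p = 0.221; exact permutation test, two-sided, p = 0.0152). Orc1, the subunit that comes and goes with the cell cycle, had the widest spread of the members (SD of 0.73 on the log2 scale within groups), with values from 17.6 to 113 normalized counts, and its interval from -0.69 to 0.91 held any difference up to those sizes. Cdc6, a loader of the helicase, ranged from 81.7 to 249.6 normalized counts in control pups and from 146 to 230 in the PTU group, and its log2 fold change was 0.24 (95% interval -0.23 to 0.72). Cdt1, which brings the helicase to the origin, had a log2 fold change of -0.05 (95% interval -0.43 to 0.34).

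All 6 helicase activation genes had higher means in the PTU group, with a median log2 fold change of 0.12 and no unadjusted p under 0.05 (16.3% of all rows had one). Without PTU 1 all 6 were again higher, the median was 0.24, and Cdc45 and Gins1 had an unadjusted p under 0.05 (14.3% of all rows), whereas without PTU 3 the median was 0.04 and without PTU 4 only 4 of the 6 were higher. Cdc45, which completes the active helicase, ranged from 783 to 1238 normalized counts (median 896) in the control group and from 953 to 1444 (median 1075) in the PTU group. Each PTU exposed pup lay above the control median, and 2 lay above the highest control pup. Its log2 fold change was 0.25 (95% interval -0.01 to 0.52; limma adjusted p = 0.324). The GINS subunits, which hold Cdc45 on the ring, had log2 fold changes of 0.28 for Gins1, 0.03 for Gins2, 0.11 for Gins3 and 0.05 for Gins4. Mcm10, which takes part in starting the fork and is not a part of the ring, had one of 0.12 (95% interval -0.21 to 0.46). In Gins2, Gins3 and Mcm10 the lowest pup of all was PTU 1.

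Among the polymerases, Prim1, the catalytic subunit of primase, had the largest difference. It ranged from 1017 to 1867 normalized counts (median 1295) in the control group and from 928 to 2160 (median 1913) in the PTU group. In 5 of the 6 PTU exposed pups Prim1 was above the control median, whereas PTU 1 was the lowest of all 13 pups. The log2 fold change was 0.33 with an SE of 0.19 (95% interval -0.06 to 0.73; limma adjusted p = 0.382), and without PTU 1 it was 0.51 with an SE of 0.15 (limma adjusted p = 0.170). Pola1 and Pola2, which with primase form the complex that lays down primers, had log2 fold changes of 0.03 and -0.17 (0.14 and -0.02 without PTU 1). Pole, the catalytic subunit of the leading strand polymerase, had one of -0.08, and Pold1, that of the lagging strand polymerase, one of 0.15, and both intervals included 0.

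The PCNA clamp and its loader all had higher means in the PTU group, and the 5 log2 fold changes had a median of 0.13, which was 0.23 without PTU 1 and 0.06 without PTU 4. Rfc4, a small subunit of the clamp loader, ranged from 503 to 652 normalized counts (median 599.8) in the control group and from 539 to 955 (median 844) in the PTU group. In this gene 4 of the 6 PTU exposed pups were above every control pup, and PTU 1 was below the control median. The difference in Rfc4 was the largest of the members, with a log2 fold change of 0.40, an SE of 0.13 and a 95% interval from 0.13 to 0.68 (limma adjusted p = 0.174; exact permutation test, two-sided, p = 0.0186). Rfc5, another small subunit, ranged from 341 to 503 normalized counts (median 459) in the control group and from 441 to 658 (median 565) in the PTU group. All PTU exposed pups but PTU 1 were above the highest control pup in Rfc5. Its log2 fold change was 0.36 with an SE of 0.12 (limma adjusted p = 0.186; exact permutation test, two-sided, p = 0.0111). The other subunits measured, Rfc2 and Rfc3, had log2 fold changes of 0.05 and 0.13. Pcna itself, the ring that holds polymerases on DNA, ranged from 2328 to 2957 normalized counts (median 2409) in the control group and from 1801 to 3247 (median 2814) in the PTU group, so the PTU exposed pups lay on both sides of the control range. The log2 fold change of Pcna was 0.07 (95% interval -0.18 to 0.32).

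Fen1, the nuclease that trims flaps of the lagging strand, and Lig1, the ligase that seals it, had log2 fold changes of -0.08 and 0.07. In both genes PTU 1 was the lowest of all pups, and without it the values were 0.07 and 0.18. Of the enzymes that make deoxynucleotides, Rrm1 and Rrm2, the large and small subunits of ribonucleotide reductase, had log2 fold changes of -0.10 and 0.22. Rrm2 ranged from 603 to 1322 normalized counts (median 906) in the control group and from 543 to 1329 (median 1153) in the PTU group, with PTU 1 lowest and 5 of the 6 PTU exposed pups above the control median. Tyms, which makes the precursor of dTTP, ranged from 1316 to 1823 normalized counts (median 1417) in the control group and from 1500.5 to 2131 (median 1686) in the PTU group. All 6 PTU exposed pups had more Tyms than the control median, and the log2 fold change was 0.17 (95% interval -0.04 to 0.39; limma adjusted p = 0.400).

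The G1/S cyclins and kinases pointed mostly the other way, with lower means in PTU exposed pups for 5 of the 7 genes measured and a median log2 fold change of -0.09, although when all pups were given 1 common total 6 of the 7 had higher means and a median of 0.12, below the 0.20 of all rows. Without PTU 1, 4 of the 7 were lower, the median was -0.02, and Ccnd2, with a higher mean, joined Cdk6 at an unadjusted p under 0.05. These counts, 1 and 2 of the 7, stand beside 16.3 and 14.3% of all rows. The median was also near 0, at -0.01 with 4 of the 7 lower, without control 6 or without PTU 6, and it was -0.13 without control 5 or without PTU 4. Cdk6, a partner of the D cyclins, ranged from 1146 to 1409 normalized counts (median 1316) in the control group and from 746 to 1276 (median 1086) in the PTU group. No PTU exposed pup was above the control median, and 5 of the 6 were below every control pup. The log2 fold change was -0.33 with an SE of 0.11 and a 95% interval from -0.56 to -0.11 (limma adjusted p = 0.173; exact permutation test, two-sided, p = 0.00291). Cdk4, the other kinase that pairs with the D cyclins, had a log2 fold change of -0.09 (95% interval -0.38 to 0.19). Cdk2, the partner of cyclin E, had one of -0.14 (95% interval -0.44 to 0.17), which was -0.02 without PTU 1. Ccnd2, the cyclin D that is abundant in neural progenitors, ranged from 19356 to 38511 normalized counts (median 25172) in the control group and from 22881 to 36847 (median 34243) in the PTU group. For Ccnd2 the control pups spanned every PTU exposed pup, 5 of which lay above the control median, and the log2 fold change was 0.27 (95% interval -0.06 to 0.59; limma adjusted p = 0.397). Ccnd1, a second cyclin D, ranged from 447 to 623 normalized counts in control pups and from 368 to 602 in the PTU group, and its log2 fold change was -0.09. Of the E cyclins, Ccne1 had a log2 fold change of -0.04 and Ccne2 one of 0.17, and both intervals included 0.

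**Figure D3:**
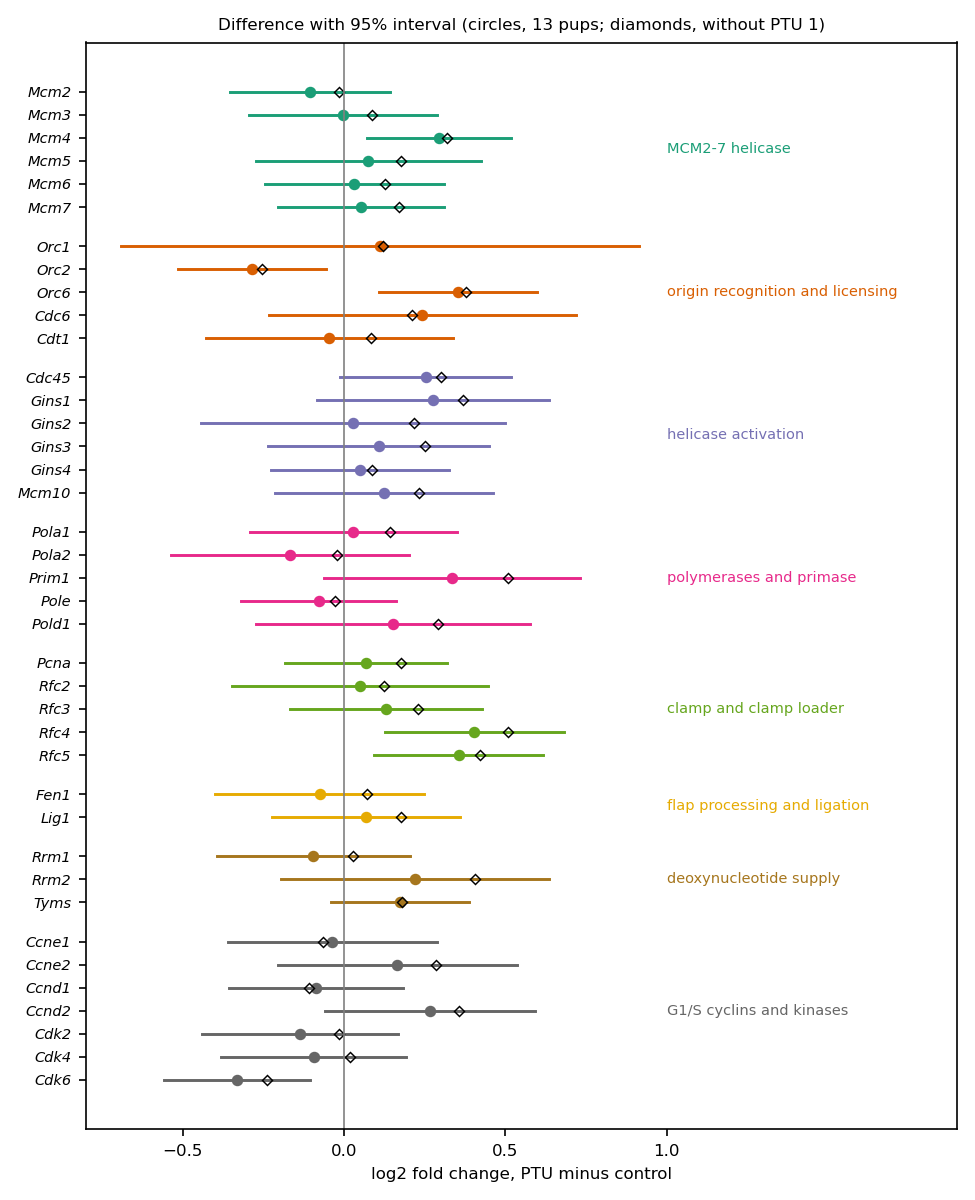
Log2 fold change of each member (PTU minus control, horizontal axis) with its 95% interval over 13 pups (circles and lines) and its value without PTU 1 (open diamonds), ordered by role. The intervals of Mcm4, Orc6, Rfc4 and Rfc5 lie above 0 and those of Orc2 and Cdk6 below 0, all before adjustment, and most diamonds lie to the right of their circles.

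Because PTU 1 was low in so many members, the comparison was repeated without it. The mean was then higher in PTU exposed pups for 31 members and lower for 8 (50.2% of all rows were higher), and the median log2 fold change was 0.18. An unadjusted limma p under 0.05 was found for 11 of the 39 members (28.2%), beside 14.3% of all rows, and the adjusted p of these 11 ran from 0.139 to 0.327, so none passed the threshold. In 9 of them (23.1% of members, beside 6.64% of all rows) the PTU exposed pups were higher: Rfc4 with a log2 fold change of 0.51, Prim1 with 0.51, Rfc5 with 0.42, Rrm2 with 0.41, Orc6 with 0.38, Gins1 with 0.37, Ccnd2 with 0.36, Mcm4 with 0.32 and Cdc45 with 0.30. The 2 lower ones (7.67% of all rows) were again Orc2 with -0.25 and Cdk6 with -0.24. All 6 genes named from the 13 pups were thus among the 11. With all 13 pups weighted by quality instead, 10 members (beside 19.5% of all rows) had an unadjusted p under 0.05, 9 of them higher (9.09% of all rows) and 1 lower (10.4%). PTU 1 was singled out by its position in these same data, and the part of its high neuron marker level in its low member values was not tested.

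Within a pup, the levels of alternative cyclins and kinases were compared as log2 ratios, which the scaling of a pup cannot move. The size of such a ratio also depends on transcript length, so only its difference between groups is read. The log2 ratio of Cdk4 to Cdk6 was 1.62 ± 0.25 (SD, n = 7) for the controls and 1.86 ± 0.13 (SD, n = 6) for the PTU group, and the difference was 0.24 (exact permutation test, two-sided, p = 0.0676). Its values ran from 1.26 to 2.02 in control pups and from 1.70 to 2.05 in PTU exposed pups, and all 6 of the latter were above the control mean. The log2 ratio of Ccnd1 to Ccnd2 was -5.59 ± 0.38 (SD, n = 7) for the controls and -5.94 ± 0.44 (SD, n = 6) for the PTU group, and the difference was -0.35 (exact permutation test, two-sided, p = 0.147). With 2 ratios tested, the Benjamini-Hochberg adjusted values were 0.135 and 0.147, and neither passed 0.05. Both differences were larger without control 6, at 0.30 (exact permutation test, two-sided, p = 0.013) and -0.48 (exact permutation test, two-sided, p = 0.0346). With any 1 of the other 12 pups left out neither ratio passed 0.05, and the exact permutation p ran from 0.0568 to 0.134 for Cdk4 to Cdk6 and from 0.0644 to 0.274 for Ccnd1 to Ccnd2.

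Beyond the contrast between groups, most members moved together from pup to pup. After each group mean was subtracted, the correlation of a member with the mean of the other members over the 13 pups had a median Pearson r of 0.75, and 29 of 39 members exceeded 0.5 (24 without PTU 1), whereas the median over all other rows was -0.03 and 10.9% exceeded 0.5. These are descriptions over points that share a library, a scaling factor and the cell makeup of a capture. The MCM2-7 subunits had a median of 0.87 (0.64 to 0.92; 0.78 without PTU 1), and Rrm1, Rrm2, Prim1, Mcm2, Fen1 and Lig1 were at 0.92 to 0.93. Some members followed the rest less closely: Cdc45 had an r of -0.14, Ccnd1 of -0.05, Ccne1 of 0.17, Cdc6 of 0.28 and Gins4 of 0.32. Of the 6 genes with an unadjusted p under 0.05, Rfc5 (0.34), Rfc4 (0.46) and Orc2 (0.46) were also in the lower part of the range. Cdk6, Mcm4 and Orc6 stood at 0.56, 0.64 and 0.67, so all 6 were below the median of 0.75. Without PTU 1 the median r of the members was 0.55, and leaving out any other pup left it between 0.73 and 0.79. The lowest values without PTU 1 were those of Cdc45, Rfc4, Rfc5 and Cdk6, at -0.57, -0.11, -0.09 and -0.04. Gins4 (0.20) and Orc2 (0.40) also fell. In contrast, Cdc6 (0.55), Ccne1 (0.46), Ccnd1 (0.12), Orc6 (0.74) and Mcm4 (0.74) rose, so the low r of Cdc6 and Ccne1 depended on PTU 1. The genes outside the list with the most similar pattern were Ccna2, the cyclin of S and G2 phase (r of 0.97), Mybl2, a transcription factor of cycling cells (0.96), the histone gene H4f3 (0.95), Tmpo (0.94), the mitotic kinase Plk1 (0.94), Iqgap3 (0.94), Myt1 (0.94) and Cand2 (0.93), and without PTU 1 their r ran from 0.85 to 0.96. Histone genes have near identical copies, so the value of H4f3 is uncertain. The log2 fold changes of these 8 genes ran from -0.19 to 0.18, and none had an unadjusted p under 0.05.

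**Figure D4:**
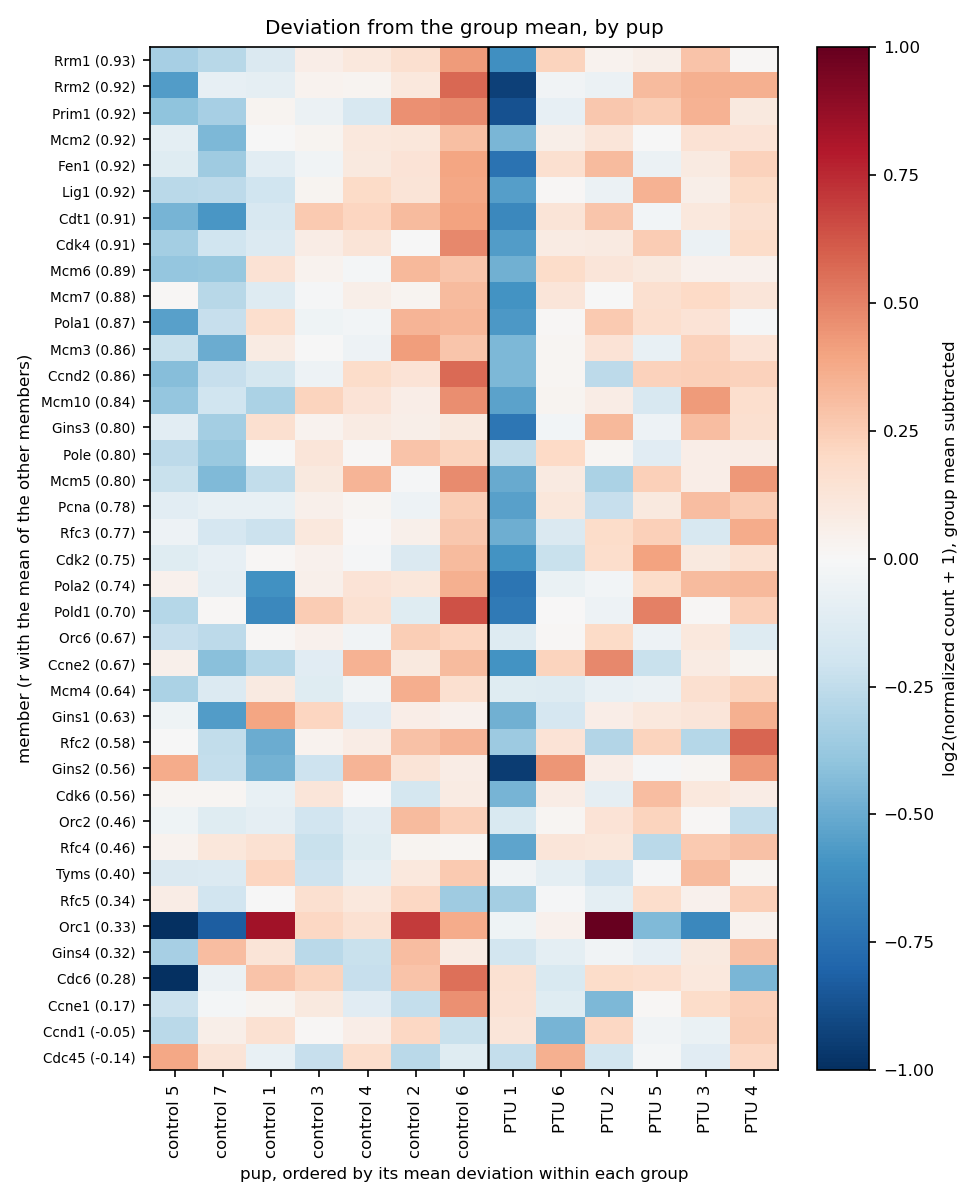
Deviation of each member (rows, with its r beside the name) from its group mean in each pup (columns), in log2(normalized count + 1), where red is above and blue below the group mean and the colours end at 1 and -1. The column of PTU 1 is blue in most rows and that of control 6 mostly red, and the rows at the foot, such as Cdc45 and Ccnd1, share this pattern less.

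A wider list of 44 replication genes, of which 42 had a row (Mcm9 and Ticrr had none), had 26 higher and 16 lower means in PTU exposed pups. With 1 common total for all pups these were 39 and 3, but 26 were above and 16 below the median of all rows, then 0.20. With the deposited scaling the median log2 fold change was 0.07, and 6 (14.3%) had an unadjusted p under 0.05, beside 16.3% of all rows. The higher ones were Pole4, an accessory subunit of polymerase epsilon, with a log2 fold change of 0.41, Dut, which removes dUTP, with 0.41, Cdc7, the kinase that fires origins, with 0.40, and Rnaseh2a, which removes RNA from DNA, with 0.29. The lower ones were Pole3, another accessory subunit of polymerase epsilon, with -0.32, and Ung, which cuts uracil out of DNA, with -0.31. Without PTU 1, 30 were higher and 12 lower, the median was 0.16, and 8 (19.0%) had an unadjusted p under 0.05, all of them higher in PTU exposed pups (6.64% of all rows). The 4 higher genes were still among them, Pole3 (-0.26) and Ung (-0.22) were not, and Rpa3, Tk1, Dna2 and Hells, named here after their values were seen, had entered. Cdc7 ranged from 340.2 to 517 normalized counts in control pups and from 429 to 637 in PTU exposed pups, 5 of which were above every control pup. None had an adjusted p of at most 0.05 over all pups, but Pole4 had 0.0439 in limma without PTU 2, a fit in which 1.23% of all rows passed. Of 29 other G1/S regulators, 27 had a row (Cdkn2a and Cdkn2b had none), with 9 higher and 18 lower means, a median log2 fold change of -0.05 and 3 (11.1%) with an unadjusted p under 0.05 (16.3% of all rows). When all pups were given 1 common total, 22 were higher and 5 lower, with 1 at an unadjusted p under 0.05. Relative to the median of all rows, which that scaling moved to 0.20, 9 regulators were above and 18 below. E2f6, a repressor of the E2F family, ranged from 775 to 917 normalized counts in control pups and from 553 to 754 in PTU exposed pups, without overlap, which was found in 0.596% of all rows. Its log2 fold change was -0.33 with an SE of 0.09 (limma adjusted p = 0.143; exact permutation test, two-sided, p = 0.000583, the smallest that the test can give with these group sizes). E2f4, another E2F that acts mainly as a repressor, had a log2 fold change of -0.34, and Tfdp1, the partner with which E2F proteins bind DNA, had one of 0.27. Without PTU 1, 11 regulators were higher and 16 lower, the median was again -0.05, and 3 (beside 14.3% of all rows) had an unadjusted p under 0.05, namely E2f6 (-0.28), Tfdp1 (0.30) and, named after its value was seen, the kinase inhibitor Cdkn1c, while E2f4 (-0.29) did not. Their median depended on other pups, from -0.09 without control 5 to -0.01 without control 2 or control 3, and stayed below 0 with any 1 pup left out. Of the mitosis and spindle genes, the next stage of the cell cycle, 29 of 30 had a row (Ndc80 had none), 16 had higher and 13 lower means, and the median log2 fold change was 0.01 (28 and 1 with a median of 0.21 when all pups were given 1 common total, beside 0.20 of all rows). Among these, 2 (6.90%, beside 16.3% of all rows) had an unadjusted p under 0.05, namely Ube2c, a ubiquitin carrier of mitotic exit, with 0.49, and Aurkb, a kinase of chromosome segregation, with -0.37. The mitosis genes followed the mean of the replication and G1/S genes from pup to pup, with a median r of 0.78 (0.73 without PTU 1). Without PTU 1, 22 mitosis genes were higher and 7 lower, the median log2 fold change was 0.11, and 5 (17.2%, beside 14.3% of all rows) had an unadjusted p under 0.05. The direction of this list turned without control 5 or control 7, when 9 were higher and 20 lower, with medians of -0.08 and -0.04, and the median also fell below 0 without PTU 2, PTU 4 or PTU 5.

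Markers of cell types in or beside the VZ were read in the same fit, and 16.3% of all rows had an unadjusted p under 0.05 in it. None of these markers had an adjusted limma p of at most 0.05, and their part in the member values was not tested. The 11 radial glia markers all had lower means in PTU exposed pups (median log2 fold change -0.29, 6 with an unadjusted p under 0.05), and without PTU 1 all 11 were again lower, the median was -0.30 and 5 had such a p. When all pups were given 1 common total, 9 of the 11 were lower, the median was -0.09 and 0 had an unadjusted p under 0.05. That scaling moved the median of all rows to 0.20, and all 11 lay below it. The summed level of the 11 ran from 98006 to 129505 normalized counts in control pups and from 80667 to 105638 in PTU exposed pups. The 14 neuron markers all had higher means (median 0.43, 6 with an unadjusted p under 0.05), but 13 did with TMM scaling. Without PTU 1, 13 were higher, the median was 0.31 and 5 had such a p, and without control 5 or without PTU 6 only 3 did. They had a summed level from 55648 to 80927 in control pups and from 73452 to 131919 in PTU exposed pups, the highest being PTU 1. The study describes the choroid plexus as not part of the sequenced tissue, but its markers were measured. The 9 choroid plexus markers all had lower means (median -0.76, 6 with an unadjusted p under 0.05), as they did without PTU 1 (median -0.82, 7 with such a p) and when all pups were given 1 common total (2 with such a p). The count ran from 4 (without PTU 6, when the median was -0.50, among others) to 9 (without control 6 or PTU 4). They had a summed level from 49929 to 140258 in control pups and from 23380 to 100388 in PTU exposed pups. These lists included Slc1a3, Vim and Fabp7 for radial glia, Dcx, Map2 and Tubb3 for neurons and Ttr, Clic6 and Kl for the choroid plexus. Of the lists, the radial glia markers had a median r of 0.38 with the members, the intermediate progenitor and neuroblast markers one of 0.72, the neuron markers one of -0.50 and the choroid plexus markers one of -0.32. Without PTU 1 these were 0.02, 0.49, -0.07 and -0.23.

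**Figure D5:**
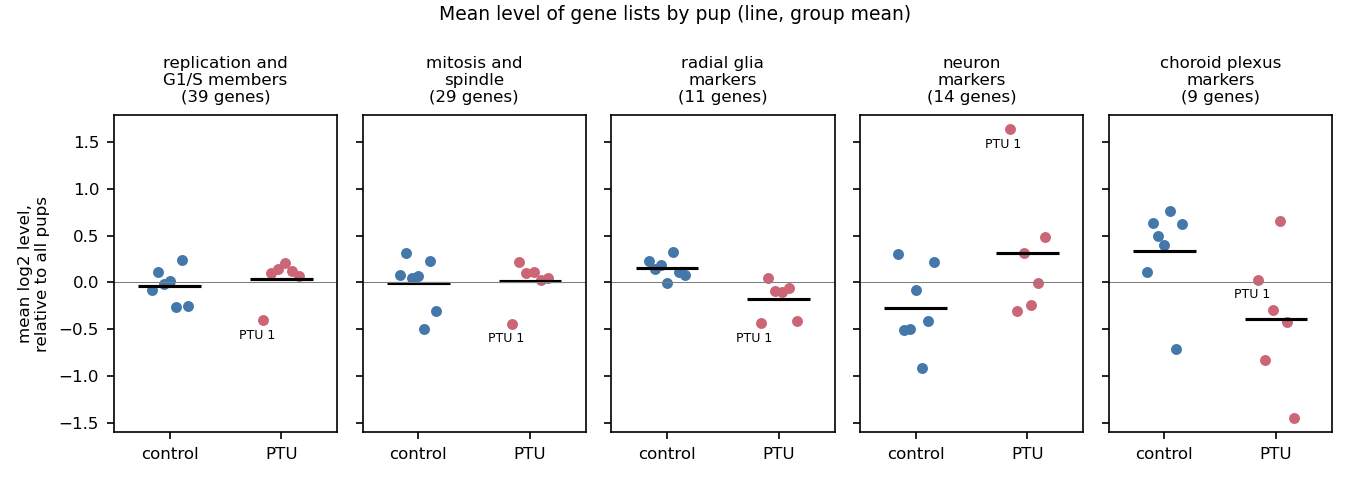
Mean level of 5 gene lists in each pup, in log2 units relative to the mean of all pups, with a line at each group mean. PTU 1 is the lowest pup for the 39 replication and G1/S genes and the highest for the neuron markers, while the other PTU exposed pups lie within the control range for the former.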

How the data were processed

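Per the labels and the methods, the authors used Trimmomatic for trimming, STAR 2.7.8a for alignment (mRatBN7.2) and Partek's E/M quantification on a RefSeq annotation, followed by median ratio scaling. What they deposited is a signal, called normalized counts, on rows that carry Ensembl identifiers and gene names. The filter on low rows and the strand setting of the counting are not given in the sources used here. The authors compared groups with DESeq2, and their columns of p-values, FDR, ratios, fold changes and group means were not used.

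Rows averaging 10 or more over the pups were put on a log2 scale after adding 1, a scale that understates differences of low genes, and compared with limma 3.58.1 in R 4.3.3 (empirical Bayes with a variance trend, two-sided, Benjamini-Hochberg over all rows, threshold 0.05). Single genes and ratios had an exact permutation test that regrouped the pups in every way. Of the values from 20 to 150, 88.2 to 89.7% were whole multiples of a step (tolerance 0.02), too few to recover whole reads, so no count model was used. No transcript lengths were used, so levels of different genes are not compared. The fit was tested on simulated data. Tables were handled in Python 3.11.15 (pandas 2.3.3, numpy 2.4.6), and plots were drawn with matplotlib 3.10.9.

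The members and all gene lists were chosen with earlier results of these data known. Genes named were all members, genes of the wider lists with an unadjusted p under 0.05 (at most 8 a list), the 8 other rows most like the members' mean, and the 3 markers of a list with the most normalized counts, an order that also depends on transcript length; Sox2 was added as the defining marker of the VZ. The pups came from separate litters. Alternatives were pseudocounts of 0.1 and 10, no filter or a mean of at least 100, factors from a trimmed mean of M values (TMM), 1 common total for all pups, summed rows of a gene, limma quality weights, a fit without the variance trend, a block for the replicate number, and leaving out each pup.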

Additional observations from a re-analysis of the deposited data

Results flagged for a closer look

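In each group of pups, the highest and lowest values of the 39 members and of the 11 other named genes of the wider lists were compared with the rest of the group by Dixon's criterion, which chance meets in about 1 in 20 groups. Of 100 groups tested, 10 met it. PTU 1 was far below the other PTU exposed pups in Mcm2 (1778 normalized counts, with the next pup at 2427), Mcm6 (2310 against 3313), Mcm7 (2852 against 4308) and Rrm1 (2530 against 3914). Control 6 was far above the other control pups in Pcna (2957 against 2586), Ccne1 (351 against 273) and Cdk2 (687 against 569.8). PTU 2 was far above its group in Orc1 (113 against 55.6) and in Aurkb (1575 against 1159.7), and PTU 3 was far above its group in Tyms (2131 against 1736). The flags in PTU 1 and control 6 fall in the pups that were lowest and highest over the members as a whole.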

How the results depend on the processing

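Pseudocounts of 0.1 and 10, no filter, a mean of at least 100 (which left out Orc1), TMM factors, no variance trend and summed rows kept the direction of every one of the 50 named genes of the members and wider lists that they tested, and no member had an adjusted p of at most 0.05 under any alternative. When all pups were given 1 common total, the median log2 fold change of the members was 0.27, 1 other G1/S regulator had an unadjusted p under 0.05, and the signs of Mcm2 (0.10), Mcm3 (0.20), Cdt1 (0.16), Pola2 (0.0337), Pole (0.12), Fen1 (0.13), Rrm1 (0.11), Ccne1 (0.16), Ccnd1 (0.12), Cdk2 (0.0644) and Cdk4 (0.11) turned; the scaling itself moved the median of all rows by as much. With pups weighted by quality (lowest weight 0.454, PTU 1), 10 of 39 members and 5 of 27 other G1/S regulators had an unadjusted p under 0.05, beside 19.5% of all rows. In that fit 18 of all rows were higher and 22 lower at an adjusted p of at most 0.05, and Mcm3 (0.07) and Orc1 (-0.0121) turned. The cause was not tested. Without control 6, 1 of all rows was higher and 6 were lower at an adjusted p of at most 0.05. Same numbered pups of different groups came from different litters, and the correlation of their deviations ranged from -0.07 to 0.20, with 4 of 6 pairs over 0.1 and 3 of 6 control pups closest to the PTU exposed pup of their own number. As not all pairs exceeded 0.1, the numbers were not taken as pairs. With the replicate number as a block, to which control 7 adds nothing as it has no counterpart, 18 of all rows had an adjusted p of at most 0.05 (0 without it), 5 of 27 other G1/S regulators had an unadjusted p under 0.05, beside 20.2% of all rows, and Mcm6 (-0.0315), Orc1 (-0.0249), Gins2 (-0.0116) and Pola1 (-0.0085) turned. With each pup left out in turn, the members with an unadjusted p under 0.05 numbered 6 to 11, 11 being without PTU 1, and their median log2 fold change ran from 0.0094 (without control 7) to 0.18 (without PTU 1). The other replication genes past an unadjusted p of 0.05 numbered 4 to 8 and past an adjusted p of 0.05 from 0 to 1 (Pole4, without PTU 2, where 1.23% of all rows passed), the other G1/S regulators 2 to 4 and the mitosis genes 1 to 5, 5 being without PTU 1. The difference in the log2 ratio of Ccnd1 to Ccnd2 ran from -0.48 to -0.26, that of Cdk4 to Cdk6 from 0.18 to 0.30, and the median r of the members from 0.55 to 0.79. Signs turned for Mcm3 (-0.0851 to 0.0876), Mcm5 (-0.0099 to 0.18), Mcm6 (-0.0325 to 0.13), Orc1 (-0.13 to 0.25), Cdt1 (-0.14 to 0.0829), Gins2 (-0.0595 to 0.22), Gins4 (-0.0082 to 0.10), Pola1 (-0.0605 to 0.14), Rfc2 (-0.0665 to 0.12), Fen1 (-0.14 to 0.0715), Lig1 (-0.0027 to 0.18), Rrm1 (-0.15 to 0.0275), Ccne1 (-0.0835 to 0.0541), Ccnd1 (-0.13 to 0.0071) and Cdk4 (-0.15 to 0.0177). Among the members, depth limits Orc1 most, for which the pups held from an estimated 19 to 117 reads.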

Other observations

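Promoter letters were also counted in the wider lists, as a description. The E2F motif was found in 21 of 39 windows of the other replication genes (53.8%), in 4 of 20 windows of the other G1/S regulators and in 1 of 26 windows of the mitosis and spindle genes (3.85%), against 2.14% of all rat promoter windows and 4.15% of those of genes tested here. The 13 members with a match had a median log2 fold change of 0.05 and 0 of them had an unadjusted limma p under 0.05, beside 16.3% of all rows. The 17 members with a window but no match had a median of 0.05, and 4 of them, Orc2, Orc6, Rfc4 and Rfc5, had an unadjusted p under 0.05. Without PTU 1 the medians were 0.17 and 0.18, 1 member with a match (Gins1) had an unadjusted p under 0.05, and Cdc45 and Prim1 joined the 4 without a match (14.3% of all rows). Over the 13 pups, the correlation with the mean of the other members had a median r of 0.86 in the members with a match and 0.70 in those without, with ranges from 0.40 to 0.92 and from -0.14 to 0.93, and without PTU 1 the medians were 0.77 and 0.49. No match says only that these letters were not in the window.

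The other marker lists were read in the same fit, in which 16.3% of all rows had an unadjusted p under 0.05 (14.3% without PTU 1). The intermediate progenitor and neuroblast markers, which include Sox11, Cd24 and Dlx2, had 6 higher and 4 lower means in PTU exposed pups, with 2 at an unadjusted limma p under 0.05, and without PTU 1 had 8 higher and 2 lower, with 3. Their balance had no stable direction, with 5 higher and 5 lower under TMM scaling and 4 higher and 6 lower without control 1, 2 or 7 or without PTU 3, 4, 5 or 6. The oligodendrocyte lineage markers, which include Olig1, Pdgfra and Olig2, had higher means in 7 of 7 genes, 2 of them at an unadjusted p under 0.05, and without PTU 1 in 7 of 7, with 3. The astrocyte markers, which include Aldoc, Aqp4 and Gja1, had lower means in 6 of 6 genes, 3 of them at an unadjusted p under 0.05 with and without PTU 1, but when all pups were given 1 common total in 4 of 6, with 0 at such a p. With that total the median of all rows was 0.20, and 6 of 6 astrocyte markers were below it. The ependymal and ciliated markers, which include Dnah9, Tekt1 and Ccdc153, had lower means in 5 of 6 genes, 2 of them at an unadjusted p under 0.05, but in 4 of 6 without PTU 1, with 1 at such a p, and in 3 of 6 with the common total, with 0, and Foxj1 had no row. Under the common total 5 of these 6 were below the median of all rows. The endothelial markers, which include Kdr, Cdh5 and Pecam1, had 3 higher and 2 lower means with and without PTU 1, and Cldn5, Flt1 and Abcb1a had no row. The microglia markers, which include Csf1r, Cx3cr1 and C1qb, had 5 higher and 3 lower means with and without PTU 1, but 3 higher and 5 lower without control 2 or PTU 2 and 7 higher and 1 lower without control 1. No marker in these lists had an adjusted p of at most 0.05.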
